A study of Mus musculus with 9 samples.

Results

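Rag1, Rag2 and Dntt, the lymphoid genes of antigen-receptor gene recombination, were read in 7 chromatin profiles of thymic T-cell lymphoma cells. They were taken by name, 3 of the 17491 protein-coding genes to which RefSeq (GRCm38.p6) gave a position, a strand and a start. All samples came from thymus of C57BL/6J mice and carry the label MYCN-driven T cell lymphoma cells. There were 7 immunoprecipitations, 1 library each for EZH2, SUZ12, H3K27me3, N-MYC, p300, H3K27ac and H3K4me3, and 2 input libraries, which are not analysed here. The labels name neither the promoter driving MYCN nor the animal behind each immunoprecipitation. Every sample is tumour, so no comparison with other thymocytes was made.

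RAG1 and RAG2 form the endonuclease that cuts beside antigen-receptor gene segments, and terminal deoxynucleotidyl transferase, encoded by Dntt, adds untemplated nucleotides to the cut ends before they are joined. In thymus these genes are transcribed in immature thymocytes and are shut off as T cells mature. EZH2 and SUZ12 are subunits of Polycomb repressive complex 2, which places H3K27me3. N-MYC is the transcription factor driving the tumour, p300 an acetyltransferase of enhancers and promoters, H3K27ac a mark of active enhancers and promoters, and H3K4me3 a mark of active promoters.

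Each value below is a peak's fold enrichment, a linear ratio over background taken from the authors' files. It was compared only within its own list, except in the measure of likeness between genes, which combined the 7 lists. With 1 library per antibody there is no replicate error and no test, and read depth is unknown. A missing peak means that no call passed the authors' threshold, a q-value of about 0.01. The 7 lists held 282301 peaks in all, from 9798 for N-MYC to 123056 for H3K27me3. The T-cell label was set against marker genes, counting a gene as active when its start carried both H3K4me3 and H3K27ac (47.6% of all genes). Of the T-cell markers with a known start, 10 of 10 were active, among them Cd3e, Lck and Zap70. Of B-cell markers 1 of 5 was active (Cd79a), of myeloid markers 0 of 4, and of thymic epithelial and stromal markers 1 of 6 (Epcam), with no peak at all at Psmb11 and Krt5. Erythroid markers were active in 4 of 4, with H3K4me3 fold enrichments from 12.1 at Gata1 to 19.8 at Hbb-bs and Klf1, although reads of the globin genes may be shared with near-identical copies. The part of other cell types in the values below was not tested. In such bulk chromatin, a mark in fewer cells and less of a mark per cell cannot be told apart.

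The promoters of the 3 genes are shown because their marks differed although all 3 are poor in CG dinucleotides. Sequences are from RefSeq, GRCm38.p6, 250 bases before to 50 after the start, read 5′ to 3′ on the gene's strand. Capitals mark matches to any of 7 motifs searched on both strands. The general E-box was searched as CANNTG, and its form preferred by MYC proteins as CACGTG, which is also a match to the general one. Forkhead factors were searched by GTAAACA and Runx factors by TGTGGT. For Ikaros the letters TGGGAA were used, for factors of the GATA family AGATAA, and for the TATA box TATAAA.
Rag1, chr2:101649483-101649782, minus strand: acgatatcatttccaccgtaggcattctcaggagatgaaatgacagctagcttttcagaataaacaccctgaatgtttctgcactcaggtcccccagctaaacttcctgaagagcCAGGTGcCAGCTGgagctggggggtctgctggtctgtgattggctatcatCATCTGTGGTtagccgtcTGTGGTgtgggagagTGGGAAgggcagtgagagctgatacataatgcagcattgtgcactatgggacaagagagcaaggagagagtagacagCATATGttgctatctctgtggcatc
Rag2, chr2:101624462-101624761, plus strand: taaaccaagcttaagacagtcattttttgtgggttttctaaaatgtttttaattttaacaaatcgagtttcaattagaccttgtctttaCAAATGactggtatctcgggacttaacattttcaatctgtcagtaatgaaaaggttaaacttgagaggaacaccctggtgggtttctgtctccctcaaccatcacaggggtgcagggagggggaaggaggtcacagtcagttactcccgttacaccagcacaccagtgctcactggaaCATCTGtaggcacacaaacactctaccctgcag
Dntt, chr19:41029025-41029324, plus strand: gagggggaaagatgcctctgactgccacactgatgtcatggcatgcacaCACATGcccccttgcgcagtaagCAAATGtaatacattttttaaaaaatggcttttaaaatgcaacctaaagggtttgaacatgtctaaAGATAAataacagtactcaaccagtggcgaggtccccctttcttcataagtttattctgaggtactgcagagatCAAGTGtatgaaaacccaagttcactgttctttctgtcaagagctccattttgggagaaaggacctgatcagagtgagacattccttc

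The Rag1 promoter held 4 CANNTG matches, 2 TGTGGT matches and 1 TGGGAA match, and the CATCTG at position -85 from the start overlaps the TGTGGT at -81. Among the 17491 promoters, 68.8% hold CANNTG, 15.1% TGTGGT and 24.5% TGGGAA. Rag2 held 2 CANNTG matches and Dntt 3, and Dntt had in addition 1 AGATAA match at -112, a motif found in 9.94% of promoters. CACGTG (7.91% of promoters), GTAAACA (2.93%) and TATAAA (13.3%) had no match in any of the 3 windows. Rag1 and Rag2 each held 3 CG dinucleotides and Dntt 2, against a median of 13 over all promoters. At most 3 were found in 25% of promoters and at most 2 in 19.2%.

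Within 1 kb of the start, Rag1 carried a peak in the H3K27me3 list alone, Rag2 carried H3K27me3 and EZH2, and Dntt carried none. Over all genes, 23.7% had H3K27me3 at the start, 44.9% EZH2 and 12.3% SUZ12. The active lists, which had no peak at any of the 3 starts, were present at 51.1% of genes for H3K4me3, 51.0% for H3K27ac, 39.8% for p300 and 33.2% for N-MYC. Among genes with at most 3 CG in the promoter, which include all 3, these shares were only 5.02%, 9.12%, 2.22% and 1.08%. The 7 calls at Rag1 were shared by 8.36% of genes, those at Rag2 by 0.343% (60 genes), and the empty start of Dntt by 29.0%. The Rag genes and Dntt thus lay without active promoter calls in lymphoma cells, Rag1 and Rag2 under H3K27me3 and Dntt without it.

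Rag1 (NCBI gene 19373) lies at chr2:101638252-101649532 on the minus strand. The H3K27me3 peak over its start ran from 101645406 to 101653060, 7655 bp wide, with a fold enrichment of 13.9 and a −log10 q of 42.7. It ranked 1501 by fold enrichment among the 123056 H3K27me3 peaks, and 22.1% of the 4140 genes with H3K27me3 at the start had one at least as strong. Its summit stood at -1005 bp from the start, just outside the 1 kb window that the peak itself spans. A further 5 H3K27me3 peaks lay toward the end of the gene, with fold enrichments from 3.56 to 6.51. Together the 6 peaks covered 81.3% of the gene body. Over all genes, 29.0% had any H3K27me3 peak in the body and 3.64% were covered at least as much. H3K27me3 was therefore high around the Rag1 promoter and lower, though still called, over the end of the gene. No EZH2, SUZ12, N-MYC, p300, H3K27ac or H3K4me3 peak touched the body, whereas 46.9%, 14%, 36.2%, 43.2%, 58.5% and 55.0% of genes had them.

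Rag2 (NCBI gene 19374) lies at chr2:101624712-101632528 on the plus strand, pointing toward Rag1, with 5723 bp between the 2 gene bodies. A single H3K27me3 peak of 16569 bp, from 101616302 to 101632870, covered 100% of the Rag2 body, as in 1.97% of genes. It was the 341st widest of its list, had a fold enrichment of 10.7 (rank 3261) and peaked 2.37 kb downstream of the start, inside the gene. Of the genes with H3K27me3 at the start, 40.3% had a peak at least that strong.

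Rag2 was the only one of the 3 genes with Polycomb subunit calls close by, and these were weak. An EZH2 peak of 292 bp lay 0.17 kb downstream of the start, with a fold enrichment of 3.69 and a −log10 q of 3.60. Of the 7854 genes with EZH2 at the start, 93.7% had a peak at least as strong. A second EZH2 peak of fold enrichment 4.27 lay 2.46 kb downstream, within 0.1 kb of the H3K27me3 summit. The nearest SUZ12 peaks were upstream, at -4.35 kb (3.99) and -3.69 kb (3.74), near the list's median of 3.99. All 4 peaks lay inside the 16569 bp H3K27me3 peak. Keeping only peaks with a q-value up to 1e-05, or with an enrichment of 4 or more, removed the EZH2 call at the Rag2 start and kept H3K27me3. Iftap, a gene of the opposite strand, starts at 101629031 inside the Rag2 body, so peaks there cannot be assigned to either gene.

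The region of Rag1 and Rag2, each gene body with 100 kb on either side, was read next. The 2 windows overlap and share 73 of 74 peaks, so they are 1 locus and not separate observations. It held 64 H3K27me3 peaks in the Rag2 window and 63 in the Rag1 window, 3 EZH2, 2 SUZ12, 1 N-MYC, 3 H3K27ac, 1 H3K4me3 and no p300 peaks. Over all genes, 76.5% had H3K27me3 in such a window, 75.8% EZH2, 44.1% SUZ12, 69.0% N-MYC, 80.1% H3K27ac, 78.9% H3K4me3 and 71.7% p300. H3K27me3 covered 38.8% of the Rag1 window and 39.6% of the Rag2 window, against a median of 3.33% over all genes, and 2.68% and 2.51% of genes were covered at least as much. When the lists were made equally long, at their top 9798 peaks by q-value, the Rag coverages were 24.4% and 24.8%. Apart from the 2 peaks over the starts, no H3K27me3 peak in the locus exceeded 8.65, so the mark was strongest over the genes themselves. H3K27ac covered 1.07% and 1.09%, against a median of 4.10%. The p300 list was empty for a long distance: the nearest p300 peak lay 329 kb from the Rag1 start, and 16.8% of genes were at least that far from one.

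**Figure D1:**
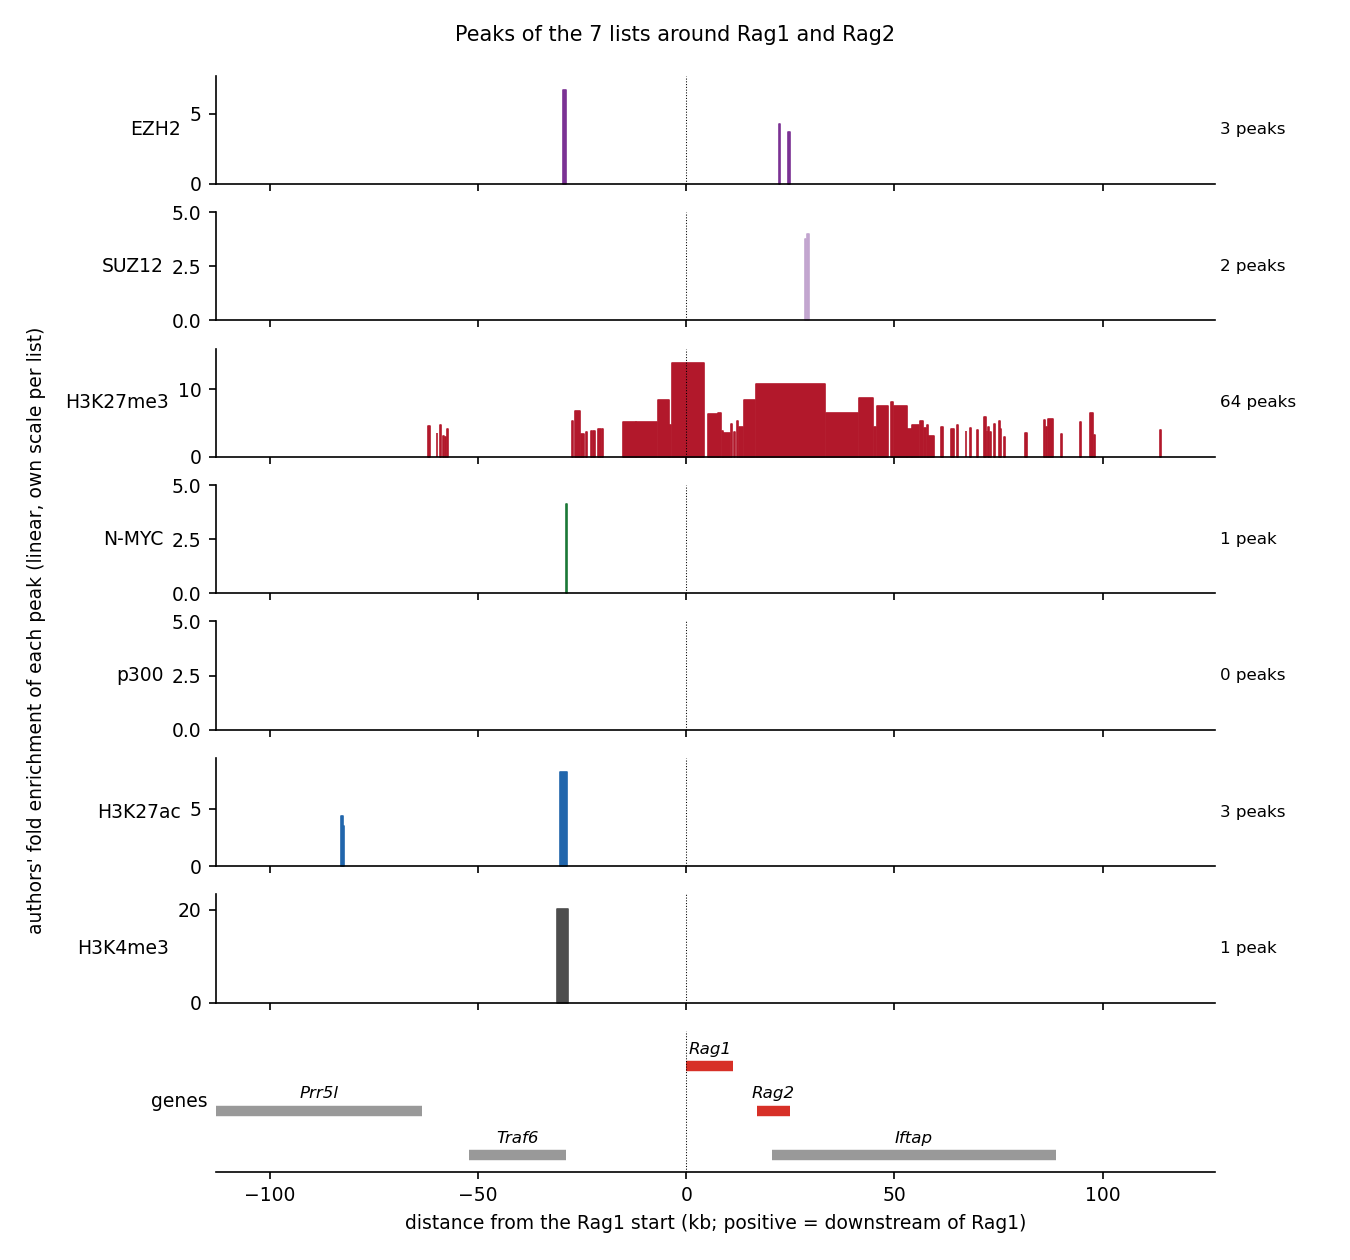
Peaks of the 7 lists around Rag1 and Rag2, with distance from the Rag1 start in kb on the horizontal axis (positive downstream, so Rag2 lies to the right) and the authors' fold enrichment of each peak as its height, on a scale of its own per list. H3K27me3 peaks fill the interval over both genes, and the active marks stand at the Traf6 start, at -28.9 kb, and at a pair of H3K27ac peaks farther out.

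Joining H3K27me3 peaks that lay within 3 kb of each other gave a domain of 91.7 kb, chr2:101573088-101664831, which held the starts of Rag1, Rag2 and Iftap. Its 41 peaks covered 79.4% of its length. It ranked 74 by length among 24143 such domains, and 112 genes (0.640%) started in a domain at least as long. No H3K27ac, H3K4me3, p300 or N-MYC peak lay inside it. A shorter run of 8 H3K27me3 peaks followed on the Traf6 side and ended 928 bp before the H3K4me3 peak of Traf6.

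Traf6 encodes a ubiquitin ligase of immune receptor signalling and starts at -28.9 kb from Rag1. Its start carried H3K4me3 (20.3), H3K27ac (8.19), EZH2 (6.73) and N-MYC (4.12), and neither SUZ12 nor H3K27me3. These were the strongest peaks of the 4 lists in the Rag locus. H3K27me3 was not called again for 29.9 kb on that side. The remaining active calls were 2 H3K27ac peaks of 4.34 and 3.54 inside the body of Prr5l, at -82.7 and -82.5 kb from Rag1. Beyond the Traf6 start, the locus thus held 2 active peaks.

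The domain was compared with the 73 domains that were longer, as a description of the lists. SUZ12 peaks covered 0.630% of the Rag domain, against a median of 12.7% (range 0 to 93.6%) in the others, of which 6 lay at or below it. EZH2 covered 0.536%, against a median of 10.2% (0 to 92.1%), with 7 of the others at or below. H3K27me3 itself covered 79.4%, against a median of 82.8% (58.3 to 98.3%), and its strongest peak of 13.9 stood beside a median of 15.6. H3K27me3 in the Rag domain was thus well inside the range of the long domains, whereas its EZH2 and SUZ12 calls were near their low end.

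**Figure D2:**
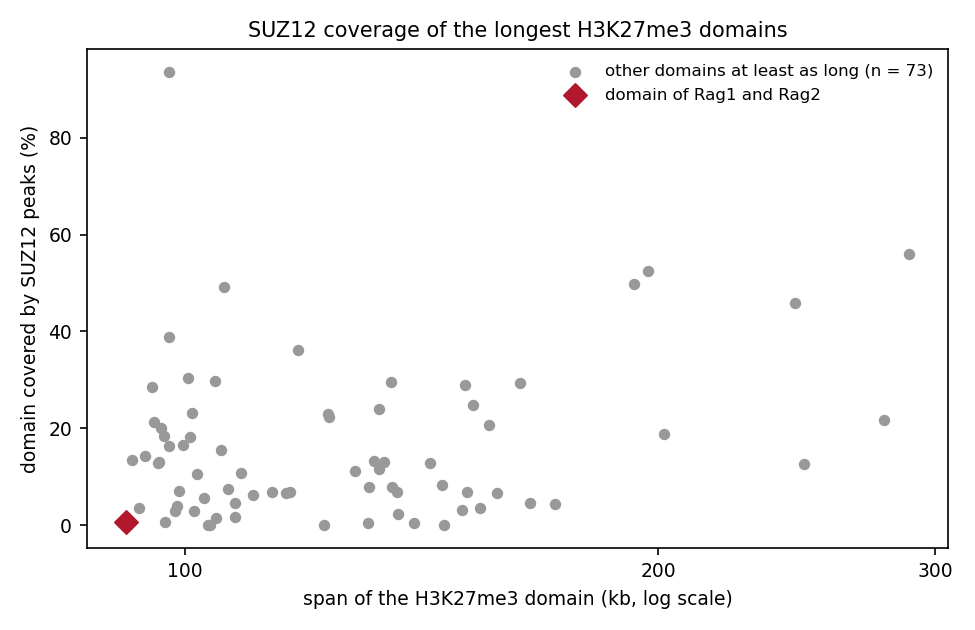
Share of each long H3K27me3 domain covered by SUZ12 peaks (vertical, percent) against its span (horizontal, kb, log scale), 1 point per domain. The domain of Rag1 and Rag2 (diamond) is the shortest shown and has 0.630% SUZ12 coverage, while the other 73 reach from 0 to 93.6%.

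The 7 calls of Rag1, H3K27me3 alone, were shared by 8.36% of genes. H3K27me3 without EZH2 or SUZ12 at the start, whatever the active calls, was found in 9.94% of all genes. Among genes with at most 3 CG dinucleotides, as at the Rag genes, 503 of 4365 had it, and among those with more 1236 of 13126, so the share of genes was near the background in both. Of the genes with at most 3 CG, 13.0% had H3K27me3 at the start, 2.15% EZH2, 1.35% SUZ12 and 5.02% H3K4me3. Among the genes with more CG the shares were 27.2%, 59.1%, 16% and 66.4%. Of the 566 H3K27me3-marked starts with at most 3 CG, 88.9% had neither EZH2 nor SUZ12, as at Rag1. EZH2 was called at 8.66% and SUZ12 at 10.4%, each counted with or without the other, whereas Rag2 had EZH2 without SUZ12. Of the 3574 marked starts with more CG, 34.6% had neither.

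Dntt (NCBI gene 21673) lies at chr19:41029275-41059525 on the plus strand, and its surroundings differed from those of the Rag genes. Its locus held 16 H3K27ac peaks, 1 p300, 1 N-MYC, 1 H3K4me3, 1 EZH2, no SUZ12 and 69 H3K27me3 peaks. The medians over all genes were, in the same order, 11, 3, 2, 3, 3, 0 and 9. At least 16 H3K27ac peaks were found in 41.5% of genes, and at least 69 H3K27me3 peaks in 4.83%. No H3K27me3 peak was called from -33.3 to 3.96 kb around the start, a stretch of 37.3 kb that held 13 of the 16 H3K27ac peaks. The start was still nearer to H3K27me3 than most: 70.6% of genes were at least 3.96 kb from such a peak, and the median gene was 29.3 kb away. Upstream of the start this stretch had 12 H3K27ac peaks between -30.8 and -4.58 kb, with fold enrichments from 2.91 to 7.26 and a median of 3.51. The median of all H3K27ac peaks was 4.04, so most of these peaks were weak. Of the 16 H3K27ac peaks in the locus, 8 were left at a q-value up to 1e-05 and 0 in lists of equal length, where N-MYC was the only active call. That length, 9798 peaks, is the whole N-MYC list, so the setting could not remove an N-MYC peak.

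The strongest H3K27ac peak of the Dntt locus was also its only site with p300. It ran from 41015980 to 41016803, with a fold enrichment of 7.26, a −log10 q of 24.2 and its summit at -12.9 kb, outside any gene body in the annotation. Of all H3K27ac peaks, 15.7% were at least as strong, and 12.9% overlapped p300. The p300 peak inside it had a fold enrichment of 3.90, below that list's median of 4.34, and was lost at an enrichment of 4 or more. Next in strength were an isolated peak at -93.2 kb in the body of Blnk (4.76) and peaks at -6.31 kb (4.51) and -7.37 kb (4.48). The upstream acetylated sites thus formed a run ending 4.47 kb before the start, and the start itself had none.

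Downstream of the start, the Dntt body held an N-MYC peak of fold enrichment 4.76 at 1.94 kb, against a list median of 5.38. An H3K27ac peak of 3.60 followed at 2.24 kb and another of 4.15 at 9.39 kb. The N-MYC peak and the nearer H3K27ac peak lie next to each other without overlapping. The body also held 8 H3K27me3 peaks, 4 between 4.0 and 6.42 kb and 4 between 27.2 and 29.7 kb, with fold enrichments from 3.37 to 5.56. They covered 7.28% of it, and 19.1% of genes were covered at least as much. Dntt had no H3K4me3 within 35.7 kb of its start, farther than the median gene (0.235 kb), and 34.4% of genes were at least as far from one. Its body thus carried scattered calls of N-MYC, H3K27ac and H3K27me3, the H3K27ac peak at 9.39 kb lying beyond the nearer group of H3K27me3 peaks.

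**Figure D3:**
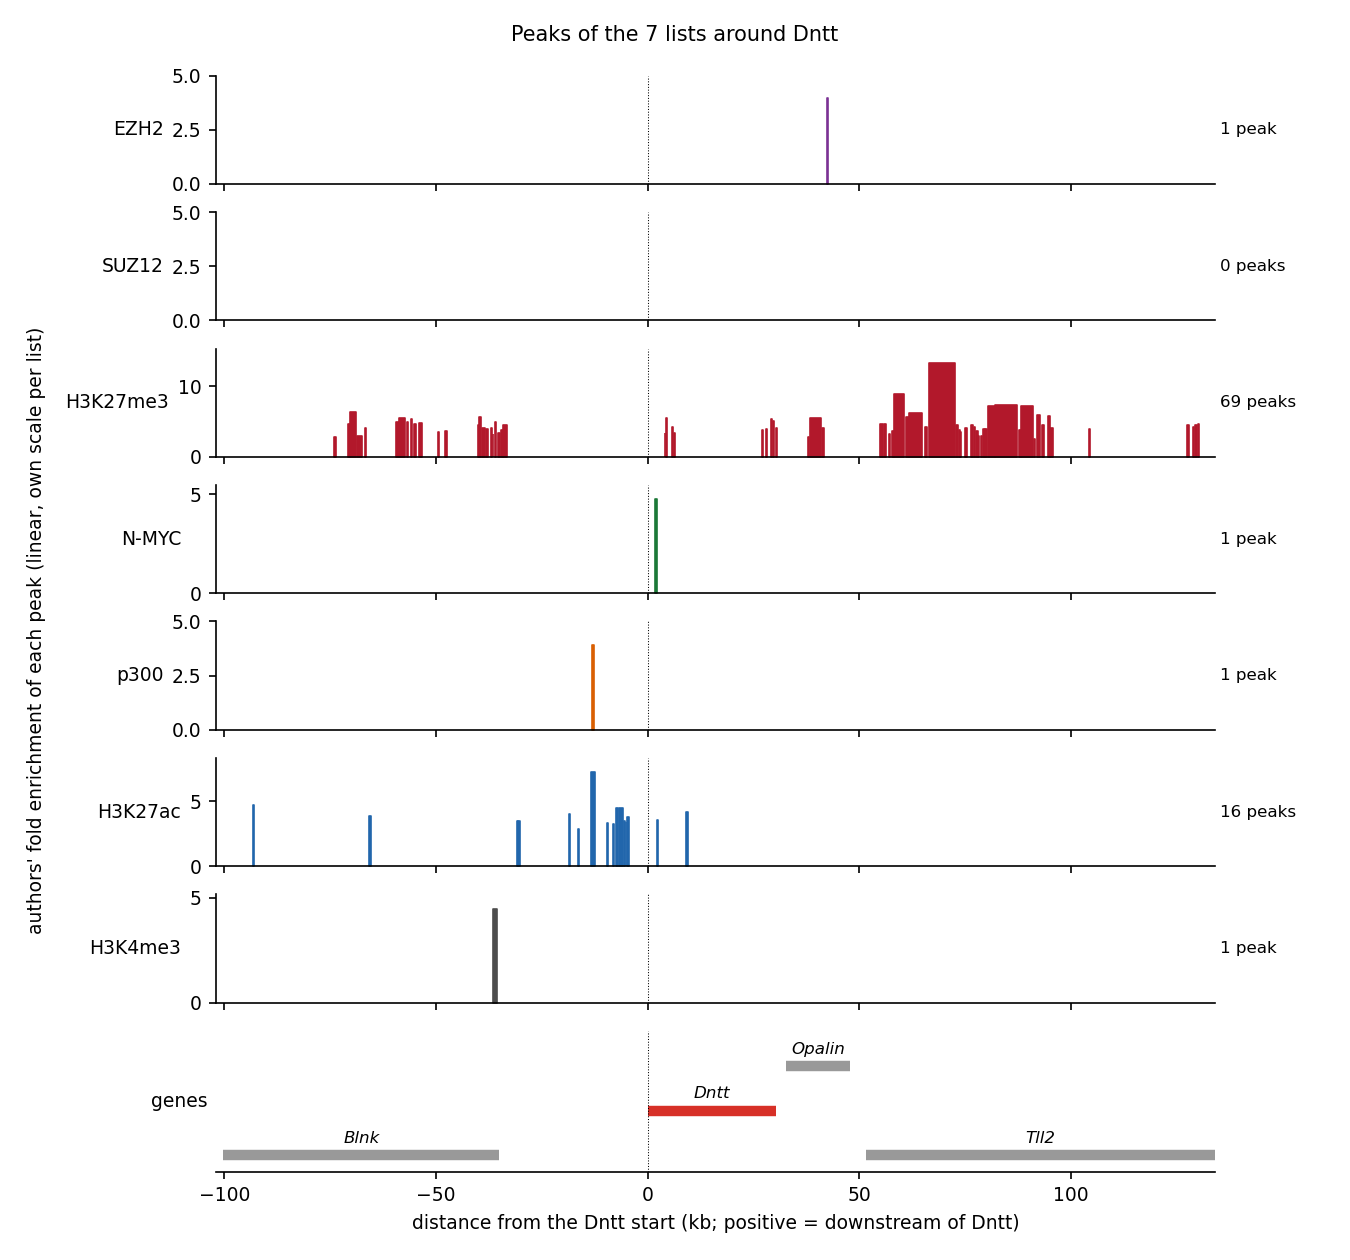
Peaks of the 7 lists around Dntt, with distance from the Dntt start in kb (positive downstream) and the authors' fold enrichment as the height of each peak, on a scale of its own per list. The single p300 peak and 12 of the 16 H3K27ac peaks lie upstream of the start in a 37.3 kb stretch without H3K27me3, and H3K27me3 peaks lie on either side of it.

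Of the neighbours of Dntt, Blnk, which encodes an adaptor of B-cell receptor signalling, starts at -35.1 kb and carried H3K27me3 (4.97) with a weak H3K4me3 peak (4.49), a strength exceeded or equalled by 80.4% of H3K4me3 peaks. Opalin, a gene of myelinating cells, had no peak at its start, and the locus's EZH2 peak (3.95) lay in its body, 42.4 kb downstream of the Dntt start. The strongest H3K27me3 peak (13.3) lay 69.5 kb downstream in the body of Tll2, a gene for a metalloproteinase, inside a domain of 40.9 kb. H3K27me3 covered 21.8% of the Dntt locus in all, and 10.6% of genes were covered at least as much. H3K27ac covered 2.58%, more than the 1.07% at Rag1 and less than the median gene. In lists of equal length this order turned, with 0% at Dntt, 0.789% at Rag1 and 0.802% at Rag2. The 1 H3K27ac peak left in the Rag windows was that at the Traf6 start.

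**Figure D4:**
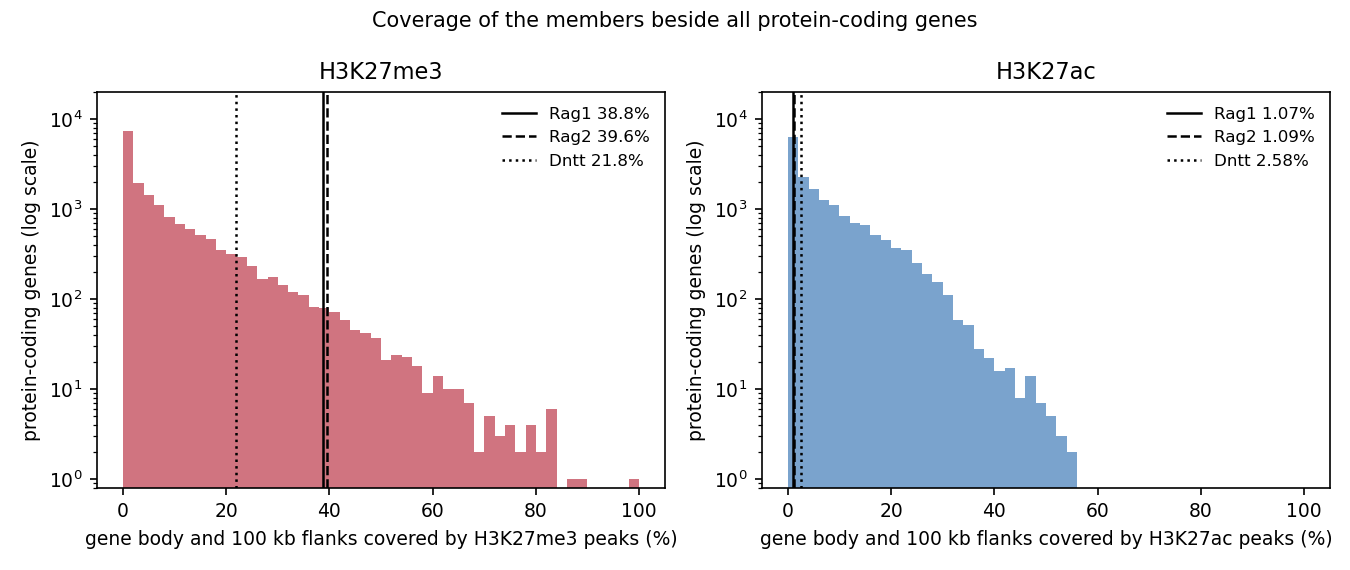
Number of protein-coding genes (vertical, log scale) by the percent of gene body and 100 kb flanks covered by H3K27me3 peaks (left) or H3K27ac peaks (right), with the 3 members as lines. Rag1 and Rag2, at 38.8% and 39.6%, and Dntt, at 21.8%, lie above the median of 3.33% for H3K27me3, and all 3 lie below the median of 4.10% for H3K27ac.

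Likeness between genes was measured over 14 values per gene, the log2 of the highest fold enrichment of each of the 7 lists at the start and over the body, as a Euclidean distance. The lists were not put on a common scale for this distance. The genes nearest to Rag1 were H2-T3 (distance 0.01), Pcsk5 (0.01) and Col8a1 (0.04), each with H3K27me3 alone at 13.7 to 14 at the start. Those nearest to Rag2 were Sertm1 (0.17), Aox4 (0.17) and Pou3f4 (0.23), with H3K27me3 from 9.84 to 11.1 and EZH2 from 3.88 to 4.08. Dntt was nearest to Fbp2 (0.80), Exph5 (1.06) and Cubn (1.60), which have empty starts and H3K27me3, N-MYC and H3K27ac in the body. Rag1 and Rag2 stood 2.87 apart, through the EZH2 calls, and Dntt was 5.05 from Rag1 and 5.45 from Rag2.

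The other genes of the reaction were read at the same window. Of 18 listed factors that bind, open or join the cut ends, 13 had a known start, and 13 of 13 carried H3K4me3, H3K27ac and p300 there. N-MYC was called at 11 and EZH2 at 10 of them, and SUZ12 or H3K27me3 at 0. Shares over all genes were 51.1% for H3K4me3, 51.0% for H3K27ac and 39.8% for p300. For N-MYC, EZH2, SUZ12 and H3K27me3 they were 33.2%, 44.9%, 12.3% and 23.7%. Xrcc6, which encodes a subunit of the Ku end-binding protein, had H3K4me3 of 47.0, H3K27ac of 8.86, N-MYC of 5.72 and EZH2 of 7.61. Dclre1c, the gene of the hairpin-opening nuclease Artemis, had H3K4me3 of 23.7 and p300 of 8.25 without N-MYC or EZH2. Lig4 and Xrcc4, for the ligase and its partner, had H3K4me3 of 33.6 and 40.6. Hmgb1 and Hmgb2, whose proteins bend DNA for the RAG complex, had H3K27ac of 25.5 and 25.6. Most of these factors act in DNA repair in all cells. The 13 starts read here carried H3K4me3, H3K27ac and p300, which the 3 lymphoid genes lacked. The CG content of these promoters was not compared with that of the 3 genes, so its part in this difference was not tested.

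Of 20 transcription factors described as regulators of Rag or Dntt, 17 had a known start. EZH2 was called at 17 of them, against 44.9% of all genes, and H3K4me3 at 15, against 51.1%. H3K27ac and p300 were called at 14 each (51.0% and 39.8% of all genes) and N-MYC at 12 (33.2%). H3K27me3 and SUZ12 were called at 7 each (23.7% and 12.3%). Tcf3, which encodes the E-box factor E2A, had H3K4me3 of 25.4 and p300 of 11, and Ikzf1, which encodes Ikaros, had 38.9 and 9.49. Runx1 (11.3) and Foxo1 (16.7) had the lowest H3K4me3 values among the 14 with H3K27ac. Pax5 and Ebf1, factors of the B lineage, carried EZH2, SUZ12 and H3K27me3 and no active mark.

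Of 13 genes of the pre-T and double-positive stages, at which Rag genes are transcribed in thymus, 9 had a known start, and 5 were active (Cd3e, Cd3d, Cd3g, Lck and Themis). Cd3d and Cd3g start close together and share peaks. Cd8a, a coreceptor chain, carried H3K27me3 alone (8.29), the same calls as Rag1. Ptcra, the pre-T-cell receptor chain, and Ccr9, a thymus homing receptor, had no peak at the start, as for Dntt. Over all genes, 8.36% shared the calls of Rag1 and 29.0% had no peak at the start, so neither match sets these genes apart. Arpp21 had EZH2 (8.88), SUZ12 (5.71) and H3K27me3 (11.2). The active count lies near the 47.6% of all genes, and 4 of the 5 active genes (Cd3e, Cd3d, Cd3g and Lck) are also counted among the T-cell markers above.

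**Figure D5:**
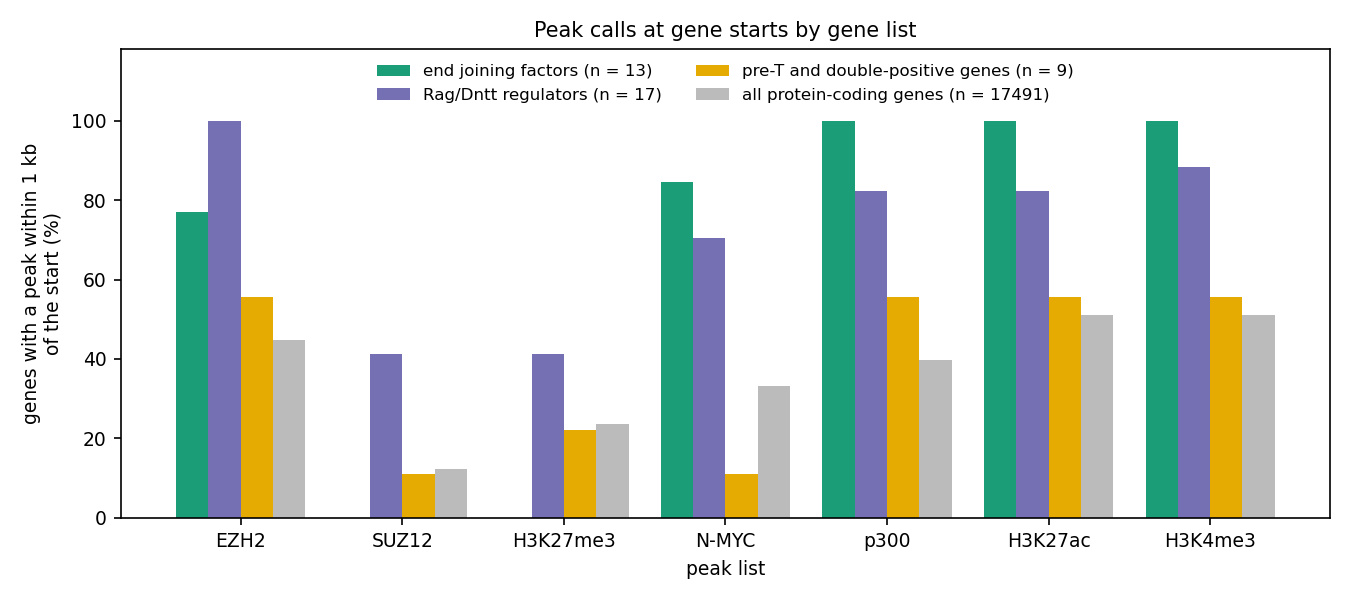
Percent of genes with a peak within 1 kb of the start (vertical) in each of the 7 lists (horizontal), for the end joining factors, the regulators, the stage genes and all protein-coding genes. The 13 joining factors reach 100% for p300, H3K27ac and H3K4me3 and 0 for SUZ12 and H3K27me3, whereas the stage genes lie closer to all genes.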

How the data were processed

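Libraries were made by ChIPmentation, a transposase-based form of chromatin immunoprecipitation, per the labels' protocols. Bowtie2, SAMtools, MACS2, deepTools and FastQC and the builds mm10 and GRCm38 are named, without role or version, in the submitters' processing notes. Pooling of libraries and use of the inputs are not given in the sources used here. The fold enrichment of each peak is a linear ratio deposited by the authors. The p-value and q-value are deposited as −log10 values, and the deposited whole-number score entered no result. Columns were identified from the file layout, as there is no header.

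Peaks were read by overlap of at least 1 bp with Python 3.11.15, numpy 2.4.6 and pandas 2.3.3, within 1 kb of each start, over the gene body and with 100 kb on either side. Of 21883 protein-coding genes, 17491 had a promoter entry, whose farthest upstream start was used, and these formed the background. The overlap step was tested on simulated data. The genes and lists were chosen with earlier results of these data known. Named genes were the members, their neighbours within 100 kb, the fixed lists and the 3 genes most like each member. For 9 main counts, alternatives changed the window, overlap rule, threshold, list length and merging. Exons and introns, and the sequence of peaks, were not analysed here.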

Additional observations from a re-analysis of the deposited data

How the results depend on the processing

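Of 72 alternative values for the 9 main counts, 39 stayed within 1.5 times the reported count and 33 did not, 9 of them upward. Requiring the summit inside 1 kb left 0 lists at the Rag1 start and 1 at Rag2, as the H3K27me3 summits lie outside. At Rag2 (2 lists), a q-value of at most 1e-05, a fold enrichment of at least 4, and lists limited to their 9798 most significant peaks each left 1. At Dntt (0 lists), 2 kb gave 1, 5 kb gave 3 and either gene end gave 1. With 50 kb flanks, active peaks were 3 at Rag1 and 3 at Rag2 (5 reported), and Polycomb peaks 41 at Rag1 (68) and 45 at Dntt (70). With 200 kb flanks, active peaks were 14 at Rag1, 14 at Rag2 and 29 at Dntt (19), and Polycomb peaks 125, 109 and 112. Without peaks at other starts, active peaks were 2 at Rag1 and 2 at Rag2. For equal lists, active peaks were 3, 3 and 1 and Polycomb peaks 12, 12 and 4 at Rag1, Rag2 and Dntt. Dntt active peaks were 11 at q of at most 1e-05 and 8 at a fold enrichment of at least 4, where Polycomb peaks were 45. With peaks within 3 kb merged, Dntt had 9 active peaks, and Polycomb peaks were 9, 10 and 11. Equal lists covered 24.4%, 24.8% and 6.55% of the 3 loci with H3K27me3 and 0% of the Dntt locus with H3K27ac, which was 1.56% at q of at most 1e-05. These coverages, and reading unmatched genes at either end, were added after seeing the data. The either-end reading gave 18 of 18 joining factors active, 15 of 20 regulators and 6 of 13 stage genes, against 46.7% of all genes. The cause of each shift was not tested beyond what a setting itself removes or adds. No paired analysis was possible because each antibody has 1 library. Unknown depth limits what a missing peak can show.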

Other observations

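Of the 73 H3K27me3 domains longer than that of the Rag genes, 6 had SUZ12 coverage at or below its 0.630%. Of these 6, 4 held no protein-coding start with a promoter entry, and the others held 7 and 5 starts. Non-coding genes, and protein-coding genes without a promoter entry, were not counted here. These domains were picked out after their values were seen.

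Stage genes without a promoter entry were read at either gene end. Cd4, the helper coreceptor, had H3K4me3 (18.7) and H3K27ac (11.8). Cd8b1 and Cd1d1 had no peak in the 7 lists.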
